A study of Mus musculus with 2 samples.

Results

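The imprinted gene set held 10 mouse genes, taken by symbol. H19, Meg3, Cdkn1c, Grb10 and Zim1 are expressed from the maternal allele, and Dlk1, Peg3, Mest, Plagl1 and Ndn from the paternal allele, in the tissues where each is imprinted. For each symbol the sense tags that belonged to that gene alone were summed, and 8 of the 10 genes had such a tag in at least 1 library. Over the whole annotation, 14450 of 55450 genes had one.

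Digital gene expression (DGE) tag profiling reads 1 short tag per transcript, the 17 bases that follow a CATG site, so that the number of copies of a tag counts transcripts without a correction for length. One library was sequenced for each of 2 mouse cell lines labelled as male germ cells, GC-1spg with 5072149 clean tags and GC-2spd (ts) with 4726808. GC-1spg was derived from type B spermatogonia of a mouse aged 10 days and transformed with pSV3-neo, and its label places it between that stage and primary spermatocytes. The GC-2spd (ts) line was derived from spermatocytes of a mouse aged 6 weeks and transformed with the SV40 large T antigen, and it is labelled premeiotic. Both were untreated established lines kept in the same serum-containing medium. Line, donor age and transforming construct could not be told apart, and with 1 library of each line every test below compared 2 libraries, not 2 conditions. The levels are copies per 1000000 clean tags (TPM), and 1 copy was worth 0.197 TPM in the GC-1spg library and 0.212 TPM in that of GC-2spd (ts). All intervals and limits cover counting error only, and copies made by PCR are not independent molecules.

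The label of both lines as male germ cells was set against their markers, and most of the germ cell markers were absent. Of 22 germ cell markers, 19 had no tag in either library, among them Ddx4, Dazl, Sycp1, Sycp3, Stra8, Kit and Zbtb16. Uchl1, which neurons also express, was the most abundant of the 3 that were listed, with 329 copies in GC-1spg against 66 in GC-2spd (ts), and the germ cell list summed to 65.3 and 14.8 TPM. Of 11 fibroblast markers 9 were listed, all but Thy1 and Lum, and they summed to 3675 and 2735 TPM. Col1a1, with 10465 and 2425 copies, carried most of the GC-1spg sum and was the only 1 called lower in GC-2spd (ts). The most abundant in GC-2spd (ts) was S100a4, with 3873 and 4784 copies, which was not called. Vim (984 and 2897 copies), Col3a1 (50 and 120) and Postn (0 and 175) were called higher. The Sertoli list summed to 139 and 38.9 TPM. The gonadal factor Wt1, at 620 and 0 copies, carried most of the first sum and was called lower in GC-2spd (ts), as was Dhh (24 and 0). Gata4, at 29 and 138, was called higher there. Sox9 (29 and 46) and Amh (5 and 0) were not called, and Cldn11, Rhox5 and Fshr had no tag. The Leydig list summed to 0.789 and 40.8 TPM, and the steroidogenic regulator Nr5a1, at 0 and 188 copies, held 39.8 TPM of the second sum. Star (2 and 5) and Cyp11a1 (2 and 0) were not called, and Cyp17a1, Hsd3b1, Insl3 and Lhcgr had no tag. The peritubular myoid list summed to 13 and 122 TPM, and Acta2 alone, at 50 and 555 copies, held 117 TPM of the second sum. Its other genes, Cnn1 (5 and 15), Des (11 and 4), Tagln (0 and 3) and Myh11 (0 and 2), were not called. None of 4 macrophage markers was listed. The part that these differences between the lines had in the levels of the imprinted genes was not tested. In bulk RNA, fewer cells that express a gene and less of its RNA per cell cannot be told apart.

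An imprinted gene is transcribed mainly from the copy inherited from 1 parent, because a control region carries DNA methylation set in the egg or in the sperm. Imprinted genes lie in clusters that often pair a growth-promoting paternally expressed gene with a maternally expressed noncoding RNA or growth inhibitor. The methylation is erased in primordial germ cells and laid down again according to sex, in the male germ line before birth. The tags carry no parental information here, so all levels below are totals over both alleles.

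The tags that carried most copies of each listed gene are printed first, because the comparisons rest on them. The capitals mark the CATG site cut by NlaIII, and the lower case letters are the 17 bases counted with it. Coordinates are on GRCm38, with transcript positions from GENCODE M21.
H19: CATGccctacttcatcctttg
Cdkn1c: CATGcgtggatccctctgcca
Grb10: CATGtaaccgttttcagggaa
Zim1: CATGcacaagaaaaataaaaa
Dlk1: CATGataatgaataataataa
Peg3: CATGacaagtgcgtagtgtca
Plagl1: CATGtgatgttgttccaatgt
Ndn: CATGtatgcaaccccaccata

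The H19 tag lies at chr7:142575592-142575612 on the minus strand, in exon 5 of 5 of the noncoding transcript. The other 7 tags lie in 3′ UTRs. Those of Cdkn1c (chr7:143458620-143458640), Grb10 (chr11:11930680-11930700), Zim1 (chr7:6671472-6671492) and Peg3 (chr7:6704236-6704256) are on the minus strand. Those of Dlk1 (chr12:109460583-109460603), Plagl1 (chr10:13129783-13129803) and Ndn (chr7:62349883-62349903) are on the plus strand. Of the 8 tags, 6 came from the CATG site nearest the 3′ end of an annotated transcript, and those of Ndn and Zim1 came from the second site. Together the 8 genes had 22 distinct sense tags with 522 copies in GC-1spg against 293 in GC-2spd (ts), and all 22 tags matched the reference with no mismatch. The main tag held between 81.3% (Peg3) and 100% (H19, Zim1 and Ndn) of the copies of its gene.

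A gene was called when the two-sided Audic-Claverie test gave a false discovery rate (FDR) of at most 0.001, adjusted by Benjamini-Hochberg over the 14450 genes, and the levels differed at least 2-fold. Of the 8 imprinted genes with a tag, 3 were called higher in GC-2spd (ts), 2 were called lower and 3 were not called. Over all genes tested 19.5% were called, 11.7% higher and 7.84% lower. The 1684 higher and 1133 lower calls, 59.8% of them higher, became 1292 and 1443 with TMM scaling, 47.2% higher, and 1314 and 1425 with DESeq2 size factors, 48% higher. These scalings moved the log2 ratio of every gene by -0.17 and -0.16. The 5 calls in the imprinted set held with both, as they did when libraries were scaled to their unambiguous sense tags. The median log2 ratio of the 8 genes was 0.20 with 0.5 tags added to each count, against 0.13 over all genes tested. With genes unlisted in 1 library at their bound it was 0.87, against 0. A bound of less than 1-fold, as for Zim1, was set to a log2 ratio of 0. The first median of the set lies between H19 and Cdkn1c, the second between Zim1 and Cdkn1c. None of these 3 genes was called.

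**Figure D1:**
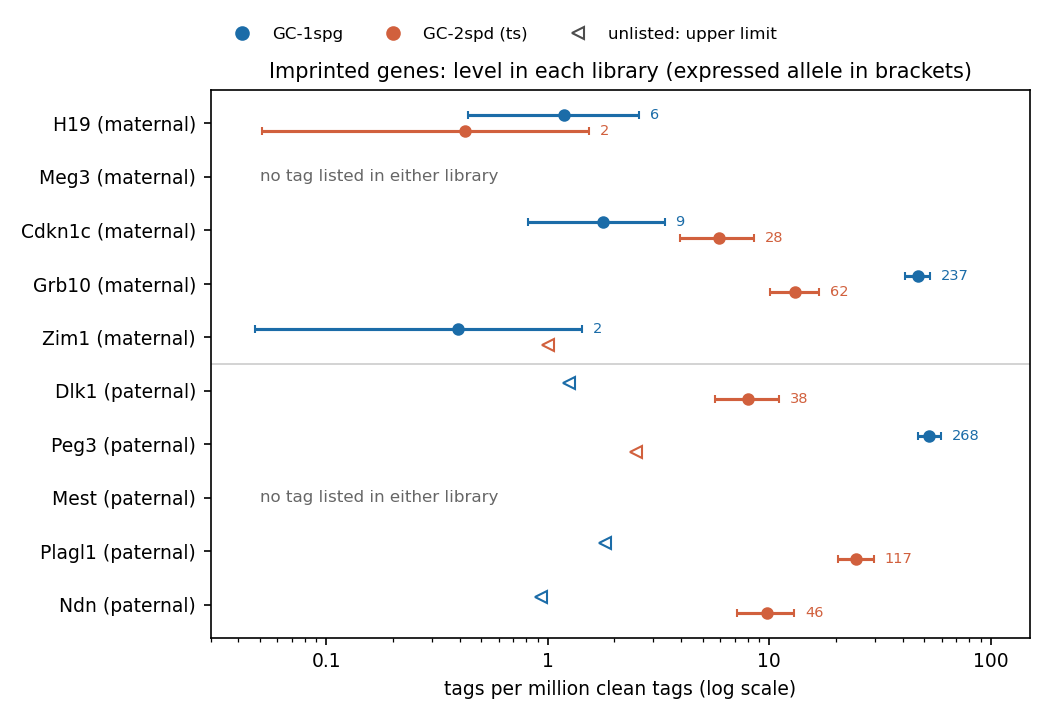
Level of each of the 10 imprinted genes in TPM on a log axis, in GC-1spg (blue) and GC-2spd (ts) (orange), with exact 95% Poisson intervals, copy numbers beside the points and the upper limit where a library lists no tag (open triangles). The intervals of Grb10 lie apart, Peg3 is listed in GC-1spg only with 268 copies, and Dlk1, Plagl1 and Ndn are listed in GC-2spd (ts) only with 38, 117 and 46.

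All 4 paternally expressed genes with a tag were listed in 1 library only. Because tags with a single copy had been removed before deposit, a gene with no listed tag was given a one-sided 95% Poisson limit. The limit allows 1 removed copy for each tag seen in the other library. Each fold given as "at least" is the observed level in the listed library over this limit. It leaves out the counting error of the listed level, so for a gene with few copies the true fold can be smaller.

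Peg3 encodes a zinc finger protein that takes part in growth, maternal behaviour and p53-linked cell death. It had 268 copies in GC-1spg (52.8 TPM, 46.7 to 59.6) and none in GC-2spd (ts), where the limit was 2.51 TPM. Its level there was thus at least 21.1-fold lower (Audic-Claverie FDR 1.26e-75). Of these copies, 218 lay on the tag printed above and 41 on a second tag in the same last exon, CATGcagaagcttttctgtgc at chr7:6706941-6706961. The remaining 9 copies fell on 4 tags of 2 or 3 copies, so that all 6 sense tags of Peg3 were seen in GC-1spg and none of them in GC-2spd (ts).

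Plagl1 encodes a zinc finger transcription factor that restrains proliferation and regulates other imprinted genes. No tag of it was listed in GC-1spg, with a limit of 1.80 TPM, and 117 copies were listed in GC-2spd (ts) (24.8 TPM, 20.5 to 29.7). Its level there was at least 13.7-fold higher (Audic-Claverie FDR 4.04e-36). The printed tag held 111 copies, and 3 further tags held 2 each, 1 of them in the 3′ UTR and the others in coding sequence.

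Ndn encodes necdin, a MAGE family protein that binds E2F1 and p53 and is best known from the Prader-Willi region. It had no copies in GC-1spg (limit 0.935 TPM) and 46 in GC-2spd (ts) (9.73 TPM, 7.12 to 13), at least 10.4-fold higher there (Audic-Claverie FDR 4.74e-14). All 46 copies lay on the second CATG site from the 3′ end, and the site nearest the end, CATGgggataataacaggtat at chr7:62350161-62350181, was listed in neither library.

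Dlk1 encodes a transmembrane protein of the epidermal growth factor-like family, related to Notch ligands, that holds back adipocyte differentiation. It had no copies in GC-1spg (limit 1.24 TPM) and 38 in GC-2spd (ts) (8.04 TPM, 5.69 to 11.0), at least 6.48-fold higher there (Audic-Claverie FDR 1.37e-11). The printed tag held 36 copies and a coding tag, CATGaccactttcaacaagga at chr12:109460318-109460338, held 2. The tag nearest the 3′ end of the longest Dlk1 transcript, at chr12:109462792-109462812, is unique to Dlk1 and was listed in neither library.

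Mest, which encodes a protein of the alpha/beta hydrolase fold and is a marker of mesoderm, had no tag in either library. Of its 21 reference tags 18 are found in no other gene, and none was listed. The tag nearest the 3′ end of its longest transcript, CATGtaagtgcggaatgaatg at chr6:30748145-30748165, is not unique to Mest, and it was not listed either.

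Among the maternally expressed genes only Grb10 was called. Grb10 encodes an adaptor that binds the insulin and insulin-like growth factor receptors and inhibits their signalling, and it is expressed from the paternal allele in neurons. It had 237 copies in GC-1spg (46.7 TPM, 41.0 to 53.1) and 62 in GC-2spd (ts) (13.1 TPM, 10.1 to 16.8). The log2 ratio was -1.83 (95% interval -2.26 to -1.42; Audic-Claverie FDR 9.96e-22), 3.56-fold lower in GC-2spd (ts). Unlike the 4 paternally expressed genes above, Grb10 was listed in both libraries. The call was lost with the edgeR exact test at an assumed biological coefficient of variation (BCV) of 0.2 or 0.4.

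Grb10 was also the only gene of the set with enough tags to compare the use of its sites. The printed tag held 206 and 50 copies, a second tag upstream in the same 3′ UTR held 15 and 4, and the third held 11 and 5. Among tags of at least 10 copies the main tag took 88.8% of 232 copies in GC-1spg and 84.7% of 59 in GC-2spd (ts), which was not called (Fisher's exact test, FDR 0.611). Of 6006 genes compared in this way, 8.61% were called. At the stricter minimum of 20 copies a tag, where 11.8% of 4277 genes were called, Grb10 had a single tag and could not be compared.

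Cdkn1c encodes p57, an inhibitor of cyclin-dependent kinases. It had 9 copies in GC-1spg (1.77 TPM, 0.811 to 3.37) and 28 in GC-2spd (ts) (5.92 TPM, 3.94 to 8.56). The intervals of the 2 levels did not overlap, but the log2 ratio of 1.74 (95% interval 0.61 to 3.01) was not called (Audic-Claverie FDR 0.00345). When only the CATG site nearest the 3′ end of each transcript was counted, 2 copies on a second tag left GC-1spg, and the log2 ratio of 2.10 was called. Thus 7 and 28 copies lay on the printed tag.

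H19 is a long noncoding RNA that is abundant in embryonic tissue. It was close to the lower end of what these libraries list, with 6 copies in GC-1spg (1.18 TPM, 0.434 to 2.57) and 2 in GC-2spd (ts) (0.423 TPM, 0.0512 to 1.53). The log2 ratio of -1.48 had an interval from -4.82 to 1.0 (Audic-Claverie FDR 0.324), so no difference was detectable at this depth. Zim1, a zinc finger gene next to Peg3, had 2 copies in GC-1spg but none in GC-2spd (ts), and no fold is given.

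Meg3, a long noncoding RNA with growth-suppressing activity, had no tag in either library. It has 101 reference tags, of which 80 occur in no other gene. The tag nearest the 3′ end of its longest transcript, CATGgtgctttcaataaattt at chr12:109571691-109571711, is not unique to it and was not listed.

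At least 20 copies over both libraries were listed for 6 genes of the set, Cdkn1c, Grb10, Dlk1, Peg3, Plagl1 and Ndn. Of these 5 were called, against 26% of 10243 genes at this minimum. Of the 6, 4 were listed in 1 library only, 1 of them in GC-1spg and the other 3 in GC-2spd (ts). Over all genes at this minimum 3.11% were listed in 1 library only, 1.81% in GC-1spg and another 1.31% in GC-2spd (ts). The set is small and was chosen with these values known, so the counts describe it and are no test. By parental allele, 0 of 4 maternally expressed genes with a tag were called higher and 1 lower, and 3 of 4 paternally expressed genes were called higher and 1 lower, beside 11.7% higher and 7.84% lower over all genes. Among the other imprinted genes described below, both alleles were called in both directions, with 2 of 20 maternally expressed genes higher and 3 lower, and 4 of 15 paternally expressed genes higher and 2 lower.

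**Figure D2:**
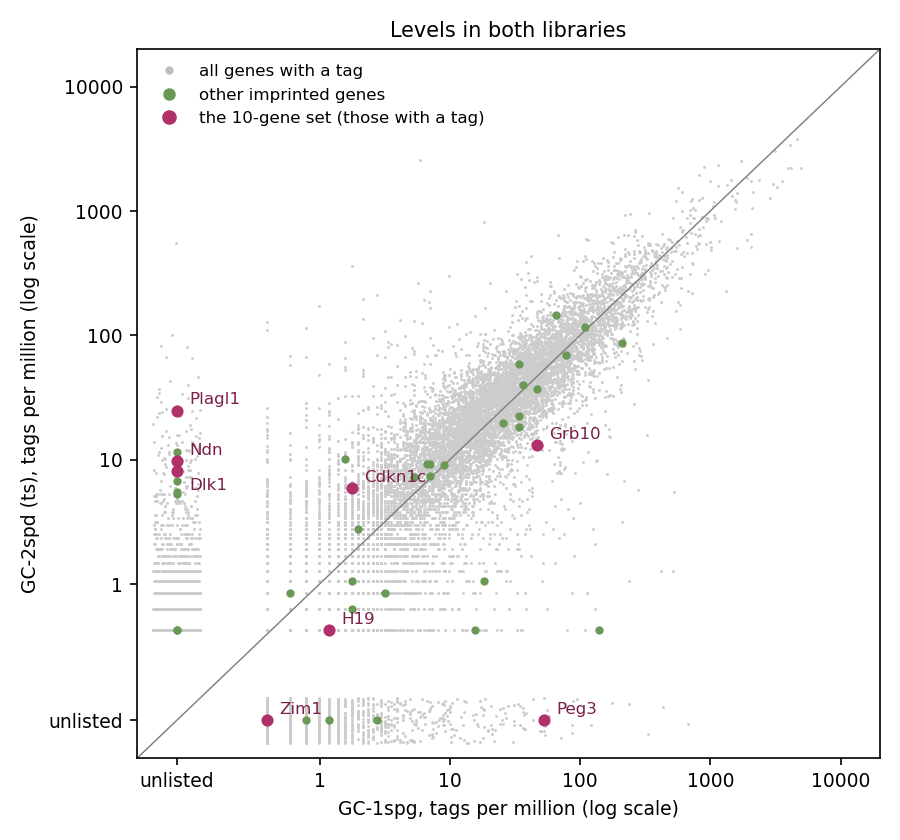
TPM in GC-1spg (x axis) and GC-2spd (ts) (y axis) on log axes for the 14450 genes with a tag (grey, those unlisted in a library scattered around the lowest tick), other imprinted genes (green) and the imprinted set (magenta), with the line of equal levels. Plagl1, Ndn and Dlk1 lie on the left edge and Peg3 on the lower edge, while Grb10 lies below the line at 46.7 and 13.1 TPM.

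The remaining genes of known imprinted clusters were described from a list of 57, of which 35 had a tag. Of these 6 were called higher in GC-2spd (ts), 5 were called lower and 24 were not called, beside 11.7% higher and 7.84% lower over all genes tested. Their median log2 ratio was 0.0055 with 0.5 tags added (0 at the bound). The list holds genes that are imprinted only in some tissues, such as placenta or brain.

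In the Peg3 cluster, Usp29 was lower in GC-2spd (ts) together with Peg3. Usp29, which encodes a deubiquitinase and starts 0.147 kb from Peg3, had 79 copies in GC-1spg against 2 in GC-2spd (ts), with a log2 ratio of -5.20 (-8.27 to -3.30). The 2 copies in GC-2spd (ts) were on a tag with 1 mismatch. Its main tag, CATGcaaaataaataaactaa at chr7:6770035-6770055 (72 and 0 copies), lies in a noncoding transcript, and the call was lost when only the longest transcript of each gene was used. Zim1, the other listed gene of the cluster, had 2 and 0 copies and was not called. As 2 copies are the fewest that these libraries list, no direction is given for it.

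The Prader-Willi cluster showed the opposite pattern for 3 of its genes. Besides Ndn, the paternally expressed Peg12 had 0 and 26 copies, a level at least 4.43-fold higher in the latter line. Atp10a, which encodes a phospholipid flippase and is in the maternally expressed list, had 0 and 32, at least 4.43-fold higher. Magel2, Snrpn and Snurf had no unambiguous sense tag, and the others were not called. Ube3a, the ubiquitin ligase of Angelman syndrome, had 394 and 327 copies (log2 ratio -0.17, -0.38 to 0.05), Mkrn3 9 and 5, and the noncoding Snhg14 0 and 2. Ube3a thus had more copies than the 3 called genes together and differed by less than 2-fold.

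In the Dlk1-Meg3 cluster Dlk1 was listed in GC-2spd (ts) only. The tag assigned to the maternally expressed noncoding Rian had 93 and 5 copies, a log2 ratio of -4.12 (-5.77 to -2.84). The call of Rian rests on this 1 tag, CATGaaataaataatttttaa, which matched chr12:109645090-109645110 with 1 mismatch (C6A, with positions counted from the C of CATG and the reference base first), and Rian had no value when exact matches were required. Whether this A/T-rich tag comes from Rian could not be settled. Mirg, the last noncoding gene of the cluster, had 2 and 0 copies.

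In the Kcnq1 cluster, which holds Cdkn1c, the calls differed in direction. Kcnq1ot1, the paternally expressed antisense RNA of the cluster, had 0 and 55 copies, a level at least 2.56-fold higher in the latter line. These copies were spread over 15 tags, none of them at the site nearest the 3′ end, and 27 of the 55 were on 8 tags with 1 mismatch. When antisense tags were added the log2 ratio of Kcnq1ot1 turned to -0.38. Cd81, which encodes a tetraspanin, had 1071 and 409 copies, and was called lower with a log2 ratio of -1.29 (-1.45 to -1.12), a call that was lost at an assumed BCV of 0.2 or 0.4. Nap1l4 (237 and 174 copies), Tssc4 (131 and 93), Osbpl5 (3 and 4) and Phlda2 (6 and 0) were not called. Copg2, which overlaps Mest on the other strand, had 36 and 44 copies (log2 ratio 0.39, -0.28 to 1.07).

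**Figure D3:**
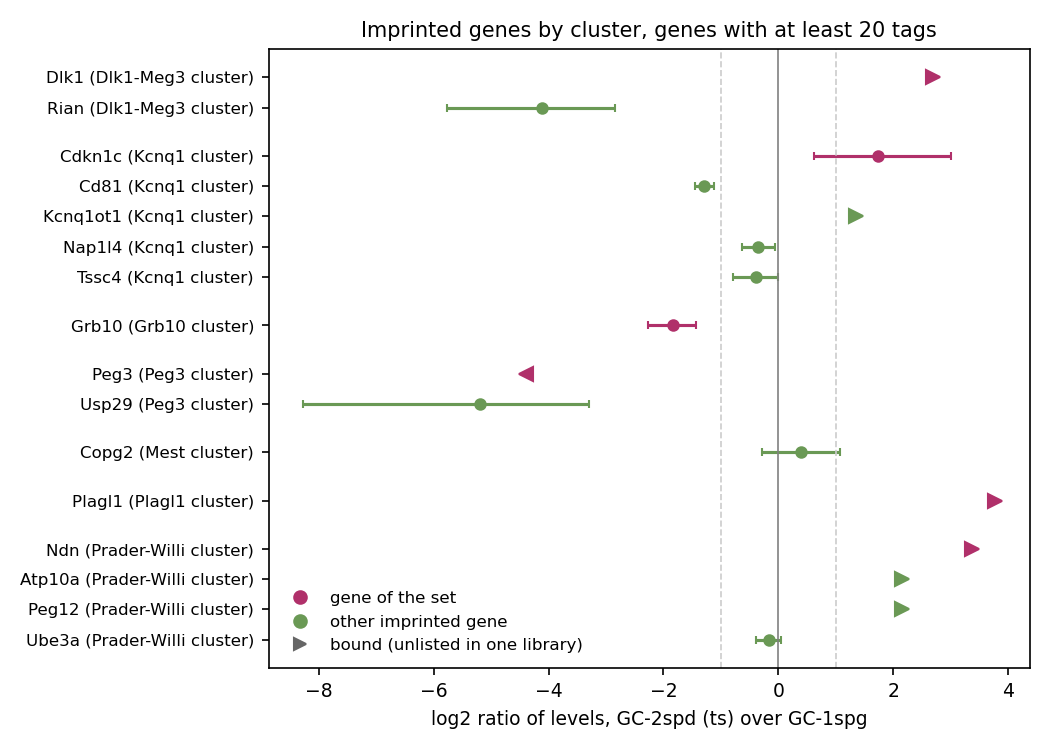
Log2 ratio of GC-2spd (ts) over GC-1spg for genes with at least 20 copies in the imprinted clusters of the set, with exact 95% intervals (points), or the bound of the ratio where 1 library lists no tag (triangles that point away from 0). Dashed lines mark a 2-fold difference. Peg3 and Usp29 lie to the left, Ndn, Peg12 and Atp10a to the right, and Dlk1 and the tag assigned to Rian on opposite sides.

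Outside these clusters, 3 genes were called higher and 2 lower. Peg10, a retrotransposon-derived gene needed in the placenta, had 0 and 25 copies, a level at least 2.93-fold higher in the latter line. Its neighbour Sgce, which encodes epsilon-sarcoglycan, had 8 and 48 copies, a log2 ratio of 2.69 (1.59 to 3.98), so both genes of this pair were higher there. Commd1 had 332 and 691 copies, a log2 ratio of 1.16 (0.97 to 1.35) that fell just under 2-fold, to 0.99 and 1.0, with TMM and DESeq2 scaling, and to 0.46 when only the site nearest the 3′ end was counted. Dcn, which encodes the matrix proteoglycan decorin, had 710 and 2 copies, a log2 ratio of -8.37 (-11.42 to -6.51), and its 2 copies in GC-2spd (ts) were on a tag with 1 mismatch. Sfmbt2, a Polycomb protein gene, had 14 and 0 copies, at least 2.07-fold lower, and is named here although it had fewer than 20 copies because it was among the 5 called lower. Its call was lost when only the site nearest the 3′ end was counted and at an assumed BCV of 0.1, 0.2 or 0.4.

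Genes known to set or keep imprinted methylation were counted as a separate list of 14, of which 11 had a tag. One was called higher in GC-2spd (ts), 2 were called lower and 8 were not called, 3 calls of 11 beside 19.5% over all genes. Zfp57, a zinc finger protein that recruits the silencing machinery to methylated imprinting control regions, had 76 and 17 copies, a log2 ratio of -2.06 (-2.91 to -1.29). Dnmt3a, a de novo DNA methyltransferase, had 95 and 14 copies, a log2 ratio of -2.66 (-3.59 to -1.84). The call of Zfp57 was lost at an assumed BCV of 0.2 or 0.4 and that of Dnmt3a at 0.4. Trim28, the corepressor that binds Zfp57, had 371 and 709 copies, a log2 ratio of 1.04 (0.85 to 1.22). This ratio fell under the 2-fold limit with TMM scaling (0.86), DESeq2 size factors (0.87) and scaling to unambiguous sense tags (0.95). The call of Trim28 was also lost at an assumed BCV of 0.2 or 0.4. The maintenance methyltransferase Dnmt1 (224 and 246 copies), its partner Uhrf1 (1489 and 1443) and the insulator protein Ctcf (218 and 251) were not called. Ctcfl, Dnmt3l and Dppa3, which act in germ cells and early embryos, had no tag.

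The genes around the set were counted to show whether the calls were shared by their surroundings. Within 1 Mb of a gene of the set there were 55 different genes with at least 20 copies, and 16 were called, 8 higher and 8 lower. The 44 of them that are in neither imprinted list held 9 calls (20.5%), beside 26% over all genes with this many copies. The 11 that are imprinted held 7 calls, but they include genes of the set itself that lie near another of its genes, and without these 8 imprinted neighbours held 5 calls. Around Plagl1, 11 neighbours held 2 higher and 2 lower calls with a median log2 ratio of 0.73, and the nearest, Gm47691 (19 and 18 copies) and Ltv1 (91 and 167), were not called. Within 500 kb of Plagl1 only the 2 higher calls were left, and among neighbours with at least 50 copies only the 2 lower ones. Around Peg3, 7 neighbours held 2 lower calls (1 within 500 kb), with a median of -0.62, and the nearest on the other side from Usp29, Zfp444 (51 and 42 copies), was not called.

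The neighbours of Grb10 are in neither imprinted list. Fignl1, with 63 and 149 copies, was called higher, and Gm12002, with 257 and 143, was not called. The nearest genes to Mest were Cep41, with 25 and 56 copies and called higher, and Copg2. The ratio farthest from 0 around the whole set was that of Podxl near Mest, which is in neither imprinted list and had 295 and 0 copies; it is named after its values were seen. On the side of lower coordinates, Wars next to Dlk1 had 126 and 118 copies and Lsp1 next to H19 had 41 and 22, and neither was called. For Ndn the only neighbour within 1 Mb was Peg12.

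**Figure D4:**
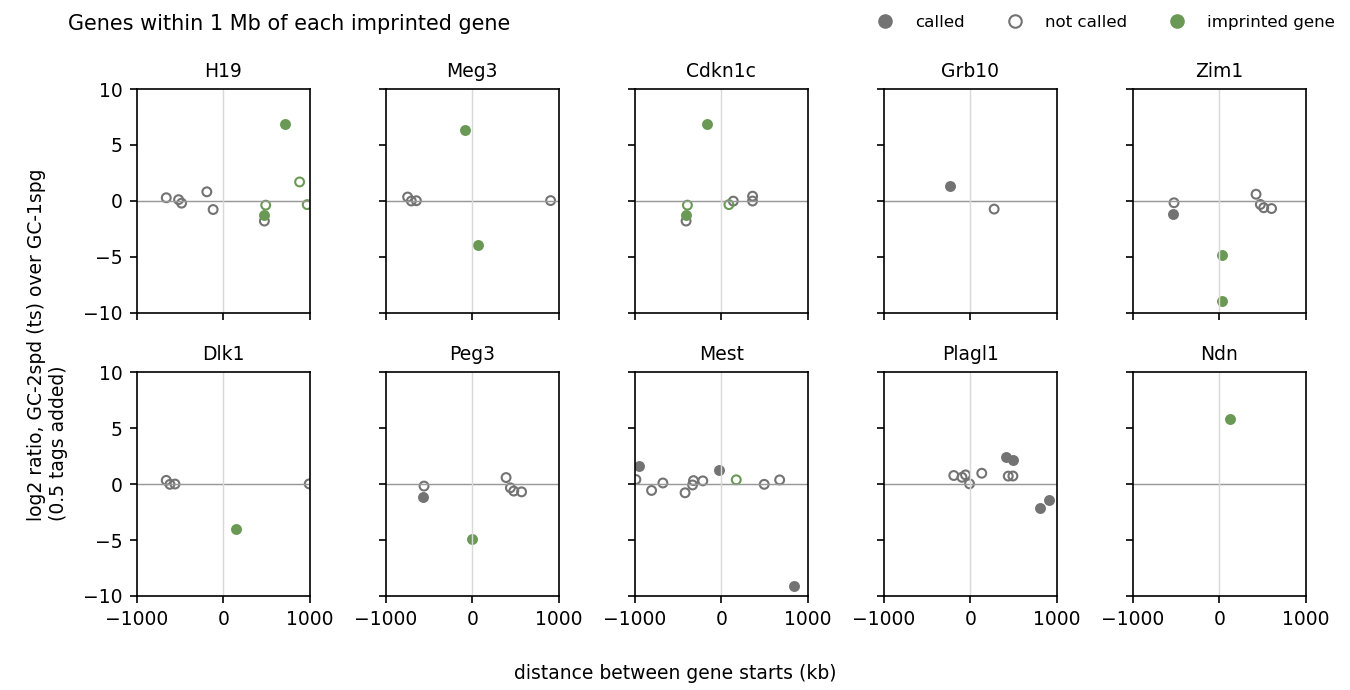
Log2 ratio of GC-2spd (ts) over GC-1spg (0.5 tags added) of each gene with at least 20 copies within 1 Mb of a gene of the set, against the distance between the gene starts in kb. Filled points are called, open points are not, and imprinted genes are green. The point farthest from 0 is Podxl, not an imprinted gene, near Mest. Near Grb10 and Plagl1 the farthest points are also not imprinted genes, and near all other genes of the set they are. Near Zim1 and Meg3 these are Peg3 and Dlk1, which belong to the set itself.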

How the data were processed

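DGE libraries of GC-1spg and GC-2spd (ts), 1 each, were sequenced by the authors on an Illumina instrument. The deposited files give counts, the copies of each distinct 21-base tag, after the authors removed adaptor, low quality and single-copy tags. The deposited TPM column gives the same copies per 1000000 clean tags and was not used; TPM was recomputed from the copies. The authors' tag matching used UniGene and was not used here.

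Tags were matched to all CATG sites of 141767 GENCODE M21 transcripts (GRCm38), first exactly and then with 1 mismatch, and kept when all best sense and antisense matches lay in 1 gene. Unambiguous sense tags took 54.7% of the copies in the GC-1spg library and 57.9% in the other, ambiguous tags 28.1% and 26.2%, and 9.59% and 8.77% matched nothing. The two-sided Audic-Claverie test was adjusted by Benjamini-Hochberg over all genes (FDR at most 0.001, 2-fold, 0.01 TPM for a gene at 0). Ratios have exact conditional binomial 95% intervals, levels exact Poisson ones. Site use was compared by Fisher's exact test. The edgeR quasi-likelihood test could not be fitted to 1 library per line, so edgeR's exact test was run with assumed BCV values. The alternatives changed matching, scaling, filter and test. Python 3.11.15, scipy 1.17.1, R 4.3.3, edgeR 4.0.16 and DESeq2 1.42.0 were used, and the scripts were tested on simulated data.

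All 10 genes of the set are named whatever their values; of the 57 other imprinted genes, those with a tag in a cluster of the set and called ones with at least 20 copies; of the 14 maintenance genes, called ones with at least 20 copies; and the nearest neighbours with at least 20 copies. Markers are named when called, when most abundant, or when defining and at 0. Every gene of the Sertoli, Leydig and peritubular myoid lists is named, and the macrophage markers, none of them listed, are only counted. A few further genes were named after their values were seen. The set and all lists were chosen with earlier results of these data known.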

Additional observations from a re-analysis of the deposited data

Results flagged for a closer look

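Antisense tags, which the comparisons leave out, were listed for 5 genes of the set, and those of Grb10 and Peg3 were above the limit that an unlisted tag allows. Grb10 had 93 antisense copies in GC-1spg against 22 in GC-2spd (ts), on 5 tags in its 3′ UTR. Of these, 80 and 19 lay on 2 tags that start at the same CATG site as a listed sense tag and run in the other direction. Peg3 had 52 antisense copies in GC-1spg but none in GC-2spd (ts), and 43 of them shared the CATG site of a listed sense tag. The main one, CATGgaaaacctcacaatcac at chr7:6704253-6704273 with 38 copies, starts at the site of the main Peg3 tag. Only 1 antisense tag of Peg3, with 2 copies, lay inside Peg3os, the antisense gene that RefSeq places at chr7:6706760-6707624.

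Tags shared with an overlapping gene were also left out. Igf2, the growth factor gene paired with H19, had 107 copies in GC-1spg but none in GC-2spd (ts) on CATGcattttctggcaaaatc (chr7:142650833-142650853, 3′ UTR), which it shares with the overlapping Gm49394. Credited to Igf2, its level was at least 21-fold lower in the GC-2spd (ts) library. Gnas, which encodes the stimulatory G protein subunit, had 1057 copies in GC-1spg against 472 in GC-2spd (ts) on tags shared with Gm20721. With them and its own 9 and 3 copies, Gnas had 1066 and 475 and was called lower, with a log2 ratio of -1.06 (-1.22 to -0.91).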

How the results depend on the processing

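No paired analysis was possible because each line had 1 library. The members of the set were recomputed under 16 alternatives, the last of which, crediting tags shared with at most 2 other genes to the imprinted gene, was chosen after seeing the data. Of 124 values, 120 kept their direction and side of the threshold, none reversed, 1 gained a call (Cdkn1c, above) and 3 lost it. Grb10 lost its call at an assumed BCV of 0.2 and 0.4 and Dlk1 at 0.4, so that 1 gene of the set was called lower at each of these values; Peg3 and Plagl1 were called in all 16, and Ndn in the 15 that gave it a value (not the site nearest the 3′ end). With that site alone 3 other imprinted genes were called higher, as Atp10a and Commd1 lost their calls and Kcnq1ot1 had no value. With the longest transcript alone 3 were called lower, as Usp29 lost its call and Rian had no value. At a BCV of 0.2, 3 others were lower and 1000 genes were called in all. At 0.4, 1 other was higher and 1 lower, and 244 genes were called. Crediting shared tags gave 7 others called lower. H19 and Zim1 had no value at a minimum of 10 copies. The total of neighbour calls, summed over the set, stayed within 1.5 times, while those around single genes, Plagl1 and Peg3 among them, did not (above). No member was called for site use. Depth limits H19, Zim1 and every unlisted gene.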

Other observations

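Trappc9, a maternally expressed gene of the Peg13 cluster, was the only listed imprinted gene whose use of tags was called, and it is named after its values were seen. In GC-1spg its main tag, CATGtcctccatacgccatag, had 44 copies and the tag CATGtcctccatatgccatag none, and in GC-2spd (ts) they had 0 and 38. Both belong to the same site, chr15:72589956-72589976 in the 3′ UTR, and the first differs from the reference as T14C, counted from the C of CATG. The summed copies of the gene, 46 and 43, did not differ beyond counting error (log2 ratio 0.0044, -0.63 to 0.64), while exact matches alone gave a log2 ratio of 4.53.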
